A study of Homo sapiens with 32 samples.

Results

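The SP family is a set of 9 human genes, SP1 to SP9, that encode zinc finger transcription factors. They were looked up by symbol among 19970 protein-coding genes of GENCODE release 44 on the autosomes and the X chromosome, and every binding summit within 2000 bp of the 5' end of each gene record was taken. This gave 70 summits from 4 deposited summit lists, 26 of the SP1 list, 28 of the YY1 list, 14 of the NRF1 list and 2 of the ZNF143 list. A summit is the single base at which a ChIP-seq peak (a stretch of DNA enriched by an antibody) is highest. SP1 to SP4 are known as broadly expressed genes and SP5 to SP9 as genes of restricted tissues, and these 4 and 5 genes were compared.

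SP proteins bind GC-rich promoter elements, the GC boxes, through zinc fingers that resemble those of the KLF family. SP1 and SP3 act at many housekeeping promoters, SP4 is best known from neurons, and SP2 is known to be recruited with NF-Y, the factor that binds the CAAT box (CCAAT). SP5 is a known target of Wnt signalling, SP6 acts in tooth and skin, SP7 (osterix) is required for bone formation, and SP8 and SP9 act in limb and forebrain development. The SP genes lie near the HOX clusters, with broadly and narrowly expressed genes paired along the chromosomes.

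The study measured binding by ChIP-seq in HEK293T cells, a human embryonic kidney line, in a single clone (ZD29) whose ZNF143 protein carries an inducible degron tag, a tag that lets a small molecule trigger its degradation. All 32 samples, controls included, come from this clone, so every list below describes cells with tagged ZNF143. The 10 groups are antibody by treatment: SP1, NRF1 and YY1 antibodies with 4 untreated and 4 dTAGV-1-treated samples each, and the HA antibody against tagged ZNF143 and a mock precipitation with 2 and 2 each; treatment was 50 nM dTAGV-1, the degrader, for 30 minutes. SP1, YY1, NRF1 and ZNF143 are all DNA-binding factors of human promoters.

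Each list is a single set of summits per antibody, with no value for a sample, a replicate or a treatment, so treated and untreated cells were not compared and no spread between replicates can be given. The mock precipitation was not analysed here. The lists hold 126275 (SP1), 106658 (YY1), 39194 (NRF1) and 16600 (ZNF143) summits. The score of a summit is the −log10 of its p or q value as deposited; which of the 2 it is was not given in the sources used here. Scores and ranks are therefore compared within a list only, and the read depth behind them is unknown. Offsets are in bp from the 5' end of the gene record in the direction of the gene, negative upstream, and positions are on hg38.

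The sequences below are the reference around the strongest SP1-list summit of the members with one within 2000 bp, shown because some of these summits hold a GC box, some a CAAT box and 1 neither. Each runs 5' to 3' on the strand of its gene, from 50 bases before to 50 after the summit except where stated. Capitals mark GGGCGG (the GC box core) and CCAAT (the CAAT box) on either strand, so that CCGCCC and ATTGG are the same elements read on the other strand, and in SP5, SP8 and SP9 also ACTTCAAAGC, a run described further below.
SP1 at −347, chr12:53379779-53379879, plus strand: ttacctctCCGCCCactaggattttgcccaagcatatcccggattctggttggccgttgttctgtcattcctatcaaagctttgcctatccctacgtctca
SP1 at 363, its second summit, chr12:53380489-53380589, plus strand: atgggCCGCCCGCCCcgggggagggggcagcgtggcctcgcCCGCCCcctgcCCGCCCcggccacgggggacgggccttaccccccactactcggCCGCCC
SP2 at −87, chr17:47896013-47896113, plus strand: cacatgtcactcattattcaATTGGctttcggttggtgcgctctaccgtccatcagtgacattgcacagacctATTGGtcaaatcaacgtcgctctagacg
SP3 at 1228, 29 bases inside an untranslated exon, chr2:173964131-173964159, minus strand: ggggtgggttccGGGCGGaaggcggaggc
SP3 at −72, its second summit, chr2:173965395-173965495, minus strand: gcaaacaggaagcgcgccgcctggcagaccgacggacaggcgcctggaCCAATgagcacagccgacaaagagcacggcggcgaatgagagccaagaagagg
SP4 from −673 to −550, which holds the ZNF143 summit at −623 and the SP1 summit at −600, chr7:21427370-21427493, plus strand: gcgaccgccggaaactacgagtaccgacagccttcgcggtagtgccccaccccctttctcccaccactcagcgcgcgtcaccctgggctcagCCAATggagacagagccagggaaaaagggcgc
SP5 at −60, chr2:170715227-170715327, plus strand: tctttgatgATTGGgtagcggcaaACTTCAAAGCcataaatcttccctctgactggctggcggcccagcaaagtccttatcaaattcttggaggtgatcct
SP7 at −83, chr12:53345348-53345448, minus strand: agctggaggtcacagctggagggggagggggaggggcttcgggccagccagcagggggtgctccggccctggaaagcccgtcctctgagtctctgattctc
SP8 at −53, chr7:20786889-20786989, minus strand: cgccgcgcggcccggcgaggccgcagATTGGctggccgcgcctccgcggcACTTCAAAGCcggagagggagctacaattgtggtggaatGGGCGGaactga
SP9 from −67 to −1, up to the base before its 5' end, chr2:174334887-174334953, plus strand: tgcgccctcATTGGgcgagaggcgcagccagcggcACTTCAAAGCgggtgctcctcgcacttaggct

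All 4 broadly expressed genes and 4 of the 5 restricted genes had an SP1-list summit within 2000 bp; SP6 was the exception. Over all protein-coding genes 66.5% had one. The YY1 list gave the same counts, 4 of 4 and 4 of 5, against 65.3% of genes. Fewer members had a summit of the NRF1 or ZNF143 list, as did fewer of all genes. Over the family, 5 of 9 had an NRF1 summit, near the share of all genes, and 2 of 9 a ZNF143 summit. An NRF1 summit lay at 3 of 4 broadly expressed genes (SP1, SP2 and SP4) and at 2 of 5 restricted genes (SP5 and SP8), against 55.8% of all genes. A ZNF143 summit lay at SP2 and SP4 and at none of SP5 to SP9, against 37.4% of all genes. SP2 and SP4 were also the 2 members with summits of all 4 lists, which 35.3% of all genes had. With 9 genes these counts are a description, and no test was run on them.

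**Figure D1:**
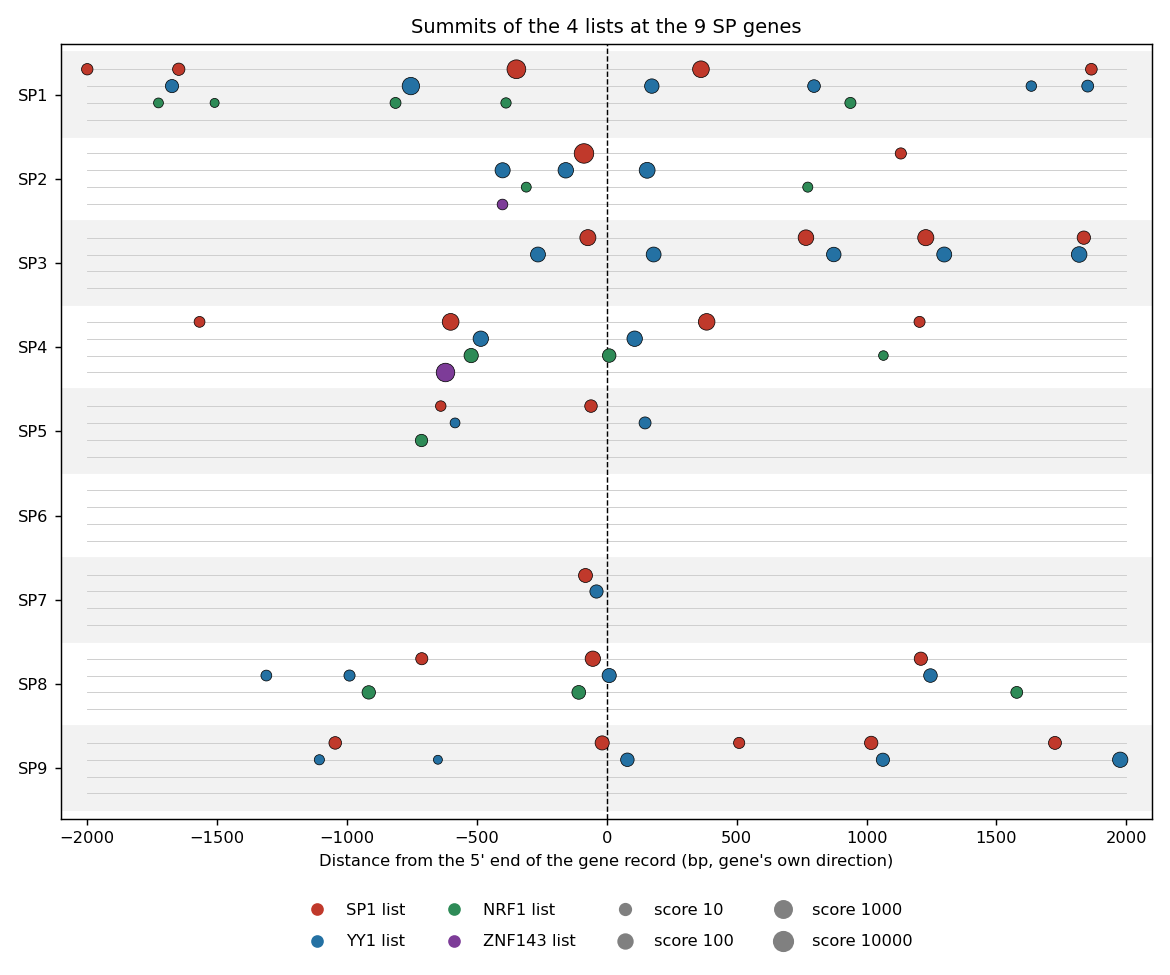
Summits of the 4 lists within 2000 bp of the 5' end of each SP gene. The horizontal axis is the distance from the 5' end in bp in the direction of the gene, colours are the lists, and the area of a point grows with the logarithm of the score. SP2 has a single large SP1 point at −87, SP4 has the large ZNF143 point at −623, and the SP6 row is empty.

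The height of the summits set the 2 groups apart more than their presence did. The highest SP1-list score per gene was 11837 at SP2, 5220 at SP1, 692 at SP4 and 389 at SP3, with a median of 2956. Among the restricted genes it was 190 at SP8, 70.6 at SP9, 62.1 at SP7, 21.4 at SP5 and none at SP6. Their median was 62.1 with SP6 counted as 0. The lowest of the first group lay above the highest of the second, so the groups did not overlap. Among all protein-coding genes, 80.1% had a lower value than SP3 and 65.0% a lower value than SP8. Over all protein-coding genes the median was 72.4, genes without a summit counted as 0 here and below, and over those with a summit it was 207. All 4 broadly expressed genes lay above the median of bound genes, and the 4 restricted genes with a summit lay below it.

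The YY1 list gave the same order of the groups with less room between them. The highest YY1-list score per gene was 1272 at SP1, 307 at SP2, 239 at SP3 and 207 at SP4. At the restricted genes it was 191 at SP9, 73.0 at SP8, 36.0 at SP7, 14.7 at SP5 and none at SP6. Over all protein-coding genes the median was 49.7, and over those with a summit it was 146, so SP9 lay above the median of bound genes, unlike in the SP1 list. The groups did not overlap, but SP4 and SP9 were close, and the SP9 value came from a summit at 1976, close to the edge of the window. Among all protein-coding genes, 73.2% had a lower value than SP4 and 72.0% a lower value than SP9. Within 500 bp of the 5' end the highest YY1-list score of SP9 was 43.0, and that of the SP1 gene was 89.7, below the 207 of SP4 but above the 73.0 of SP8. In the NRF1 list the groups overlapped: 79.6 at SP4, 8.33 at SP1 and 4.44 at SP2, against 52.7 at SP8 and 18.8 at SP5. The median highest score over genes with an NRF1 summit was 53.3, and of the members SP4 alone lay above it. The median over all summits of that list was 6.16, which SP4, SP8, SP5 and SP1 exceeded.

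**Figure D2:**
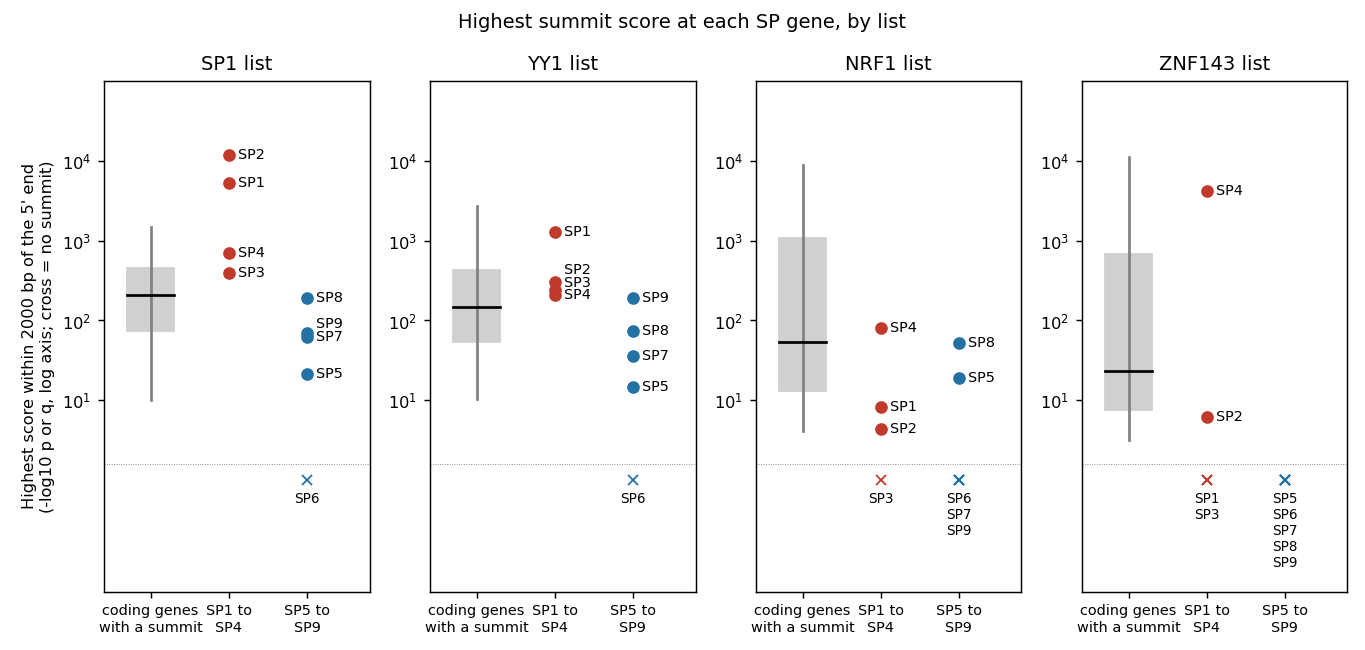
Highest score within 2000 bp of the 5' end for each SP gene, by list, on a log axis of −log10 p or q, with crosses for genes without a summit. The grey box and line give the middle 50% and the range from the 5th to the 95th percentile of protein-coding genes with a summit, with the median as a bar. In the SP1 and YY1 panels the points of SP1 to SP4 lie above those of SP5 to SP9, and in the NRF1 panel they overlap.

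SP2 (ENSG00000167182.16, chr17:47896150-47928957, plus strand) held one of the highest summits of the whole SP1 list. The summit at −87 had a score of 11837 and rank 6 of 126275, and only 3 protein-coding genes had a higher one within 2000 bp, which puts the gene at rank 4 of 19970. Its other SP1-list summit, at 1132, had a score of 8.69. The window around the high summit held 2 copies of CCAAT and 0 of GGGCGG, although 9 copies of GGGCGG lay within 500 bp of the 5' end. Summits of the YY1 list lay on both sides of it, at −400 (score 159), −157 (214) and 156 (307, in a coding exon). The NRF1 summits, at −309 (4.09) and 774 (4.44), were low. The ZNF143 summit at −402 had a score of 6.27, rank 11801 of 16600, and lay 2 bp from a YY1 summit. The noncoding gene SP2-DT starts on the other strand at −306, so the high summit lies between both starts.

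The SP1 gene itself (ENSG00000185591.10, chr12:53380176-53416446, plus strand) carried the next highest SP1-list summit of the family, so the SP1 antibody enriched the promoter of the gene that encodes its own target. The summit at −347 had a score of 5220 and rank 95, within the top 0.0752% of the list, and the gene ranked 39 of 19970. A second summit in the first intron, at 363, had a score of 641 (rank 4372), and 3 low ones lay at −1998 (10.1), −1646 (18.4) and 1865 (12.0). The window at −347 held 1 copy of GGGCGG and the one at 363 held 5, the most at any SP1-list summit of the family, while its score was the lower of the pair. The strongest YY1-list summit of the family lay at −753 of this gene (score 1272, rank 1478). The reference there is shown because it holds AANATGGCG, the core letters of the YY1 site, in capitals:
SP1 at −753, YY1 list, chr12:53379373-53379473, plus strand: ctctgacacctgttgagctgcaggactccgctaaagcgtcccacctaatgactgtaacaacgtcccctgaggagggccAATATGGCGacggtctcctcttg
This was the only YY1-list summit among the members with that motif within 50 bp. The 5 NRF1 summits of the SP1 gene scored between 2.53 and 8.33, and no ZNF143 summit lay within 2000 bp; the one nearest to the SP1-list summit at −347 was 8896 bp away.

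SP3 (ENSG00000172845.18, chr2:173880850-173965373, minus strand) had summits of the SP1 and YY1 lists spread along its first 2 kb and none of the other lists. The SP1-list summits lay at −72 (score 363), 767 (238), 1228 (389) and 1836 (37.9), and the YY1 summits at −264 (134), 181 (129), 874 (97.0), 1299 (141) and 1818 (239). No single summit stood out, since the 3 highest SP1-list scores lay between 238 and 389. They belonged to 1 peak of 8 summits that spanned 4142 bp, and 0.908% of SP1-list peaks had as many summits. The nearest NRF1 summit was 283188 bp from the summit at −72. A ZNF143 summit with a score of 38.2 lay at 4127, in the gene but outside the window, 12 bp from a YY1 and 57 bp from an SP1-list summit. A noncoding gene, ENSG00000289296, starts on the other strand at −115.

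SP4 (ENSG00000105866.15, chr7:21428043-21514822, plus strand) was the family's main ZNF143-bound gene. Its ZNF143 summit at −623 had a score of 4131, rank 1069 of 16600, and the gene ranked 1049 of 19970 in that list, while the other ZNF143 summit of the family, at SP2, scored 6.27. The strongest SP1-list summit of SP4, at −600 (692, rank 3954), lay 23 bp from it, an NRF1 summit at −521 (79.6, rank 5906) 102 bp from it and a YY1 summit at −484 (199) 139 bp from it. All 4 factors therefore had a summit within 139 bp of the ZNF143 summit, upstream of the 5' end and close to the start of the noncoding gene ENSG00000290069 at −495. The 101 bases around the ZNF143 summit held no TCCCANNAT, the core of the ZNF143 site searched here, which says only that these letters are not there. A second cluster lay at the 5' end with an NRF1 summit at 10 (44.3), YY1 at 108 (207) and SP1 at 385 (587).

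SP5, SP8 and SP9 had their strongest SP1-list summit within 60 bp of the 5' end, with scores above the list's median of 14.0 but below the median of 207 for the highest summit of bound genes. SP5 (ENSG00000204335.4, chr2:170715337-170718078, plus strand) had SP1-list summits at −638 (5.76) and −60 (21.4, rank 51440), YY1 at −583 (3.93) and 148 (14.7), and NRF1 at −713 (18.8). The noncoding gene LINC01124 starts on the other strand at −770. SP8 (ENSG00000164651.18, chr7:20782279-20786886, minus strand) had SP1-list summits at −711 (16.0), −53 (190, rank 14600) and 1209 (35.8), and YY1 at −1309 (6.94), −989 (8.51), 10 (73.0) and 1246 (46.7). SP8 was the only restricted gene with more than 1 NRF1 summit, at −915 (40.3), −107 (52.7) and 1578 (13.5). The reference at −915 is shown because it holds GCGCANGCG, the NRF1 core searched here, in capitals:
SP8 at −915, NRF1 list, chr7:20787751-20787851, minus strand: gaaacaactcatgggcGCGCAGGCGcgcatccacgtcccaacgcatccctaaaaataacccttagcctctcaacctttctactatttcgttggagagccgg

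SP9 (ENSG00000217236.2, chr2:174334954-174338500, plus strand) had as many SP1-list summits as the SP1 gene, 5 within 2000 bp, but at scores between 8.69 and 70.6. They lay at −1044 (22.0), −17 (70.6, rank 27673), 510 (8.69), 1018 (39.4) and 1725 (28.3), in 1 peak of 10 summits that ran from −2134 to 3869, past both ends of the gene record of 3547 bp. Only 0.404% of SP1-list peaks had as many summits. The YY1 summits lay at −1105 (4.61), −649 (2.41), 80 (43.0), 1063 (36.0) and 1976 (191), the last in a coding exon. SP2 reached 11837 with 2 summits and SP9 70.6 with 5. The other genes with a summit had 1 at SP7 (62.1), 2 at SP5 (21.4), 3 at SP8 (190), 4 at SP3 (389) and SP4 (692) and 5 at the SP1 gene (5220). Whether number and height go together was not tested. SP6 had no summit and so no height to compare. With the summits of 1 peak counted once, each of the 8 genes with one had 1. Nearest to the limit of 2000 bp were, just inside it, the SP1-list summit at −1998 of the SP1 gene (10.1) and the YY1 summit at 1976 of SP9 (191). Just outside it, all at SP9, were SP1-list summits at 2071 (45.4) and −2134 (52.4), NRF1 at 2111 (6.68) and YY1 at −2121 (18.4).

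**Figure D3:**
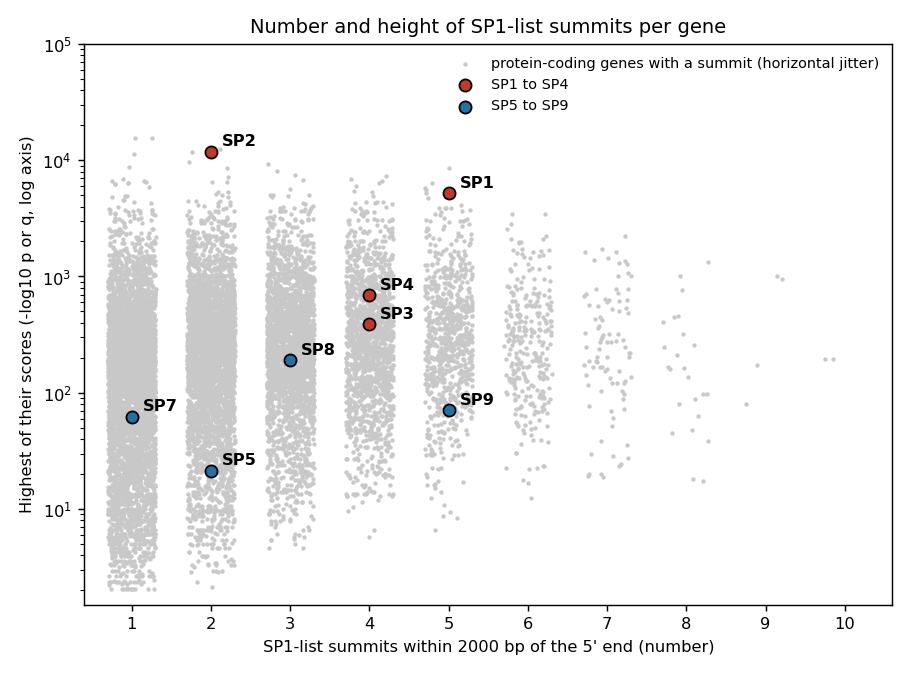
Number of SP1-list summits within 2000 bp of the 5' end (horizontal axis) against the highest of their scores (vertical log axis, −log10 p or q). Grey points are protein-coding genes with a summit, spread sideways at random, and coloured points are the SP genes. SP1 and SP9 both have 5 summits, at 5220 and 70.6, and SP2 reaches 11837 with 2.

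SP6 and SP7 depended on which 5' end was used. SP6 (ENSG00000189120.5, chr17:47844908-47855874, minus strand) had no summit within 2000 bp of its gene record's 5' end, where the 1001 bases held 0 copies of GGGCGG and the ratio of observed to expected CpG was 0.131. Its Ensembl canonical transcript starts 4711 bp further downstream, and at that start lay an SP1-list summit at −91 (75.9), a YY1 summit at −27 (7.67) and an NRF1 summit at 109 (2.25), all offsets from the canonical start.
SP7 (ENSG00000170374.6, chr12:53326575-53345315, minus strand) went the other way. Its SP1-list summit at −83 (62.1) and YY1 summit at −41 (36.0) lay at the start of its longest record, and no summit of any list lay within 2000 bp of the canonical start 8961 bp downstream. With the 5' ends of all transcripts, 4 of 4 and 5 of 5 members had an SP1-list summit and a YY1 summit, 3 and 3 an NRF1 summit, and 2 and 0 a ZNF143 summit. The shares of all genes were then 72.7%, 71.5%, 61.6% and 41.6%. Within 500 bp of the gene record's 5' end the counts were 4 and 4 for SP1, 4 and 4 for YY1, 3 and 1 for NRF1 and 1 and 0 for ZNF143, against 59.1%, 57.8%, 48.3% and 31.7% of all genes.

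By the median, the promoters of the broadly expressed genes held more GC boxes. Within 500 bp of the 5' end, copies of GGGCGG on both strands numbered 16 at SP1, 9 at SP2, 8 at SP4 and 5 at SP3, and 6 at SP7, 4 at SP5, 3 at SP8, 1 at SP9 and 0 at SP6. The medians were 8.5 and 3, and 2 over all genes. SP3 and SP7 overlapped across the groups. The overlap was wider in other windows: within 1000 bp SP5 had 15 copies, above the 9 of SP2, 8 of SP3 and 11 of SP4, and within 250 bp SP8 had 3, as SP2 had, and SP3 had 2. Median GC content was 66.3% and 57.0%, against 59.2% over all genes, while the median ratio of observed to expected CpG was 0.718 and 0.689, against 0.688. At least 1 GGGCGG stood in 72.0% of all such promoter windows. CCAAT numbered 6 at SP1, 10 at SP2, 1 at SP3 and 2 at SP4, and between 1 and 3 at SP5 to SP9, and 65.7% of all windows held it. GCGCANGCG, AANATGGCG and TCCCANNAT, searched on both strands for NRF1, YY1 and ZNF143, had no copy within 500 bp of any member's 5' end, and 14.6%, 7.54% and 12.8% of all windows held them.

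At the strongest SP1-list summits themselves, the CAAT box was found more often than the GC box. CCAAT lay within 50 bp of the strongest summit of 5 of the 8 genes with one, namely SP2, SP4, SP5, SP8 and SP9, and 22.0% of protein-coding genes had it at their strongest SP1-list summit. GGGCGG lay there in 3 of 8, namely SP1, SP3 and SP8, against 42.7% of genes. SP7 had neither. CCAAT was looked up after the windows had been seen. Over all 26 SP1-list summits of the members, 6 had CCAAT (the sixth at −72 of SP3) and 9 had GGGCGG, against 15.5% and 27.3% of the 27139 SP1-list summits near a protein-coding 5' end.

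The same 2 motifs ran differently with rank over all these summits. CCAAT stood at 45.5% of the 33 summits of ranks 1 to 100 (95% Wilson interval 29.8% to 62.0%, for counting error only), 52.5% of ranks 101 to 1000, 32.1% of ranks 1001 to 10000, 12.7% of ranks 10001 to 40000 and 11.1% beyond rank 40000. In windows 400 bp to either side the shares were 13.6%, 11.3%, 8.80%, 8.67% and 10.1%. GGGCGG stood at 33.3%, 39.5%, 47.1%, 38.1% and 13.4% of the same 5 classes, against 31.8%, 26.0%, 21.7%, 19.7% and 12.3% to the sides. SP2, at rank 6, was thus in a class where CCAAT was common. SP4 held CCAAT at rank 3954, in a class where its share was 32.1% against 8.80% to the sides. SP8 and SP9 held CCAAT at ranks 14600 and 27673, in a class where its share was 12.7% against 8.67% to the sides. SP5 held it at rank 51440, in a class where the shares were close, 11.1% against 10.1%.

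**Figure D4:**
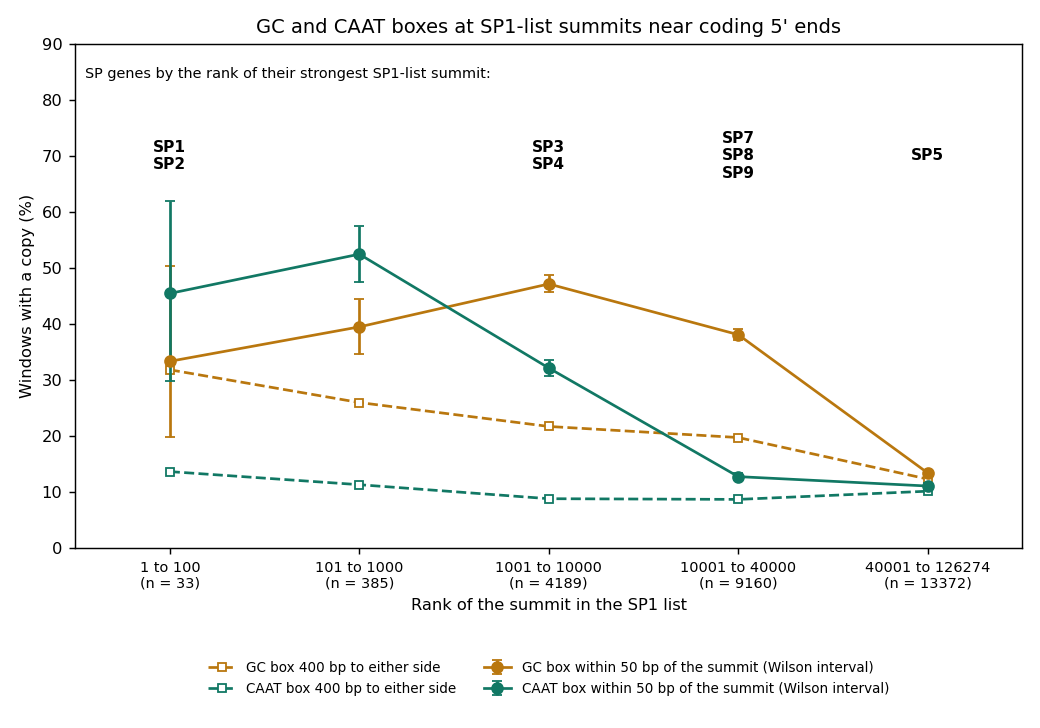
Share of SP1-list summits near protein-coding 5' ends with a GC box or a CAAT box within 50 bp (solid, with 95% Wilson intervals) and in windows 400 bp to either side (dashed), by rank in the list, with the number of summits below each class. Gene names mark the class of each member's strongest summit. The CAAT box share falls from 52.5% in ranks 101 to 1000 to 11.1% beyond rank 40000.

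SP5, SP8 and SP9 shared more than the CAAT box. Each held the 10 letters ACTTCAAAGC on the strand of the gene, from −86 to −77 in SP5, −53 to −44 in SP8 and −32 to −23 in SP9, and in SP8 and SP9 the shared run was 15 letters, GCGGCACTTCAAAGC. Runs of similar length were shared by other pairs of members in the same window, 13 letters by SP1 and SP9 and 11 each by SP3 and SP6, SP3 and SP8, SP4 and SP8, and SP5 and SP8. In all 3 the CAAT box lay upstream of it, as ATTGG. The run was found as the longest one common to the 200 bases before the 3 starts, after the sequences had been seen, and none of the other 6 members held it there. It occurred on either strand in the same window of 6 of 19970 protein-coding genes, or 0.0300%. The 3 members are among the 6 by the way the run was chosen. How often other runs of 10 letters occur there was not counted, so the share does not tell whether this run is unusual. The other 3 genes, named because they complete the count, were BSPH1, MOB4 and R3HDML. The run contains TCAAAG, the core that TCF and LEF factors of the Wnt pathway are known to bind, but none of the lists measures those factors.

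YY1 summits lay near the members' SP1-list summits about as often as elsewhere, and ZNF143 summits less often by count, with no test of the difference. A YY1 summit lay within 100 bp of 12 of the 26 (5 of 15 at SP1 to SP4 and 7 of 11 at SP5 to SP9), against 45.5% of SP1-list summits near protein-coding 5' ends. An NRF1 summit lay that close to 5 of 26, against 25.8%, and a ZNF143 summit to 1 of 26, the one at −600 of SP4, against 17.9%. The strongest summits of the SP1 gene were apart: the SP1-list summit at −347 and the YY1 summit at −753 were 406 bp from each other.

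The family lies in pairs on 4 chromosomes, each with a broadly expressed and a restricted gene that point away from each other. SP7 and SP1 start 34861 bp apart on chromosome 12, SP6 and SP2 40276 bp apart on chromosome 17, SP8 and SP4 641157 bp apart on chromosome 7, and SP3 and SP9 369581 bp apart on chromosome 2, with 1 protein-coding gene between the last pair and 0 between the others. SP5 lies 3250036 bp from SP3. Between SP7 and SP1, leaving out 2000 bp at each start, lay 16 SP1-list, 13 YY1 and 7 NRF1 summits, or 51.8 SP1-list summits per 100 kb against 4.16 over the genome. The genome value covers all DNA, not only stretches next to promoters. Summits of 1 peak were counted separately, and the SP1-list summit at −2384 of the SP1 gene belonged to the peak of its promoter summits. The other pairs had 11.0 (SP6 and SP2), 6.84 (SP3 and SP9) and 5.81 (SP8 and SP4) SP1-list summits per 100 kb. For NRF1 the genome had 1.29 per 100 kb, and the intervals had 22.7 (SP7 and SP1), 2.76 (SP6 and SP2), 1.10 (SP8 and SP4) and 0.274 (SP3 and SP9). Between SP7 and SP1 the highest SP1-list summits, at −9174 from the SP1 gene (293) and −8848 (284), were intergenic. YY1 (84.3), NRF1 (6.04) and ZNF143 (5.47) summits lay at −9794, −9534 and −9243. Between SP6 and SP2 the strongest summits of 3 lists fell within a few bases of each other, SP1 at −11926 from SP2 (455), YY1 at −11928 (45.2) and ZNF143 at −11924 (7.64).

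Inside the gene bodies, beyond 2000 bp, the SP1 and SP3 genes held the most summits, over lengths far greater than that of the window. The SP1 gene held 16 further SP1-list and 13 YY1 summits, with highest scores of 57.1 and 156. SP3 held 13 and 10, with highest scores of 150 and 32.6. SP4 held 5 and 5, the highest at 86222 (491) and 86223 (61.7), close to the far end of its 86780 bp. SP9 held 3 SP1-list, 1 YY1 and 1 NRF1 summit in the short rest of its record. SP5, SP7 and SP8 held none of any list.

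The KLF genes, the nearest relatives of the family, had summits of the SP1 and YY1 lists in most members. Of 18 KLF genes, 15 had an SP1-list summit, 15 a YY1, 11 an NRF1 and 6 a ZNF143 summit, and 5 had all 4. The shares of all protein-coding genes were 66.5%, 65.3%, 55.8%, 37.4% and 35.3%, so the last 3 counts were near those of any gene. KLF12 (3848), KLF6 (1944) and KLF10 (1811) had the highest SP1-list scores, all below those of SP2 and the SP1 gene, and KLF8, KLF17 and KLF18 had no summit of any list. With genes without a summit counted as 0, the median highest SP1-list score of the 18 was 131, between the 2956 of SP1 to SP4 and the 62.1 of SP5 to SP9. The 3 protein-coding genes whose percentiles in the 4 lists were closest to those of the SP1 gene were RAB22A (Euclidean distance 2.82 percentile points over 4 lists), DCAF15 and PODNL1 (5.46 each), the last 2 with the same highest summits. RAB22A had 4305 in the SP1 list, 1632 in the YY1 list, 6.68 in the NRF1 list and none in the ZNF143 list.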

How the data were processed

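ChIP-seq summits were analysed from 4 deposited lists; per the labels, treated and untreated samples share a list for SP1 and for ZNF143, while the NRF1 and YY1 lists are tied to their antibody by the list's name alone. Per the submitters' processing notes, cutadapt, Bowtie2, SAMtools 1.16.1, MACS3 and bedtools were used with hg38; settings were not given in the sources used here. Column 5 of each list, as deposited, is a −log10 p or q value with a lowest value of 2.00; depth is unknown. All positions fitted hg38.

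Summits were assigned to 5' ends of GENCODE 44 gene records with Python 3.11.15, pandas 2.3.3 and pysam 0.24.0; the assignment was tested on simulated data. The strongest, highest or only summit per gene is the one with the highest column 5 within 2000 bp. Lists were called shared within 100 bp. Motifs were counted on both strands of hg38, within 500 bp of 5' ends or 50 bp of summits, overlapping copies included. Named genes were all 9 members, the 18 KLF genes by count with the 3 highest and those without summits, neighbours within 2000 bp, and the 3 genes most like SP1; BSPH1, MOB4 and R3HDML were added after their values were seen. Members and lists were chosen with earlier results of these data known. No test was run: the lists have no replicates, and genes are not replicates.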

Additional observations from a re-analysis of the deposited data

How the results depend on the processing

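Counts of members with a summit stayed within 1.5 times when the window was 1000 bp, when the 5' ends of all transcripts were used, and with the canonical transcript's 5' end, an alternative chosen after seeing the data. With the lists cut to equal lengths of 16600 summits, SP5 to SP9 with an SP1-list summit fell from 4 to 1 and with a YY1 summit from 4 to 1, while SP1 to SP4 stayed at 4 in both. Within 500 bp, SP5 to SP9 with an NRF1 summit fell from 2 to 1 and SP1 to SP4 with a ZNF143 summit from 2 to 1, which was also 1 in the top 50% of that list. SP1-list summits with a YY1 summit fell from 12 to 6 within 50 bp. Those with an NRF1 summit went from 5 to 1 within 50 bp, 8 within 250 bp and 2 in the top 50% of each list. Strongest SP1-list summits with CCAAT fell from 5 to 2 and with GGGCGG from 3 to 1 within 25 bp, and were 7 and 4 within 100 bp, alternatives also chosen after seeing the data. The causes were not tested. Of the 36 highest scores, 7 moved within 500 bp and 3 with all transcripts' 5' ends. No paired analysis was possible because the lists hold no value per sample and no result comes from a test.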
